A study of Mus musculus with 68 samples.

Results

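Lung microRNAs (miRNAs) of CAST/EiJ mice were compared with those of C57BL/6J mice, and mice of both strains had breathed clean air. The comparison used the 12 small RNA libraries labelled clean air, 7 from CAST/EiJ and 5 from C57BL/6J, and every miRNA with a value in each of the 12, which were 324 of the 480 entries of the table. An entry is a mature miRNA arm at its hairpin locus. The series held 68 lung samples of male wild-type mice bought from The Jackson Laboratory. They comprised 20 small RNA libraries, 24 RNA-seq libraries and 24 chromatin accessibility samples, and the latter were not analysed here. Clean-air mice breathed clean air for 6 h per day on weekdays over 2 weeks, and the other mice breathed 1,3-butadiene (BD), an industrial gas that is a lung carcinogen in mice. C57BL/6J is the laboratory strain of the mouse reference genome, and CAST/EiJ is an inbred strain derived from wild mice of another subspecies. The sources used here do not give the ages of the mice.

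The libraries are named by the numbers of the table's columns. C57BL/6J had Lung3, Lung4, Lung5, Lung6 and Lung106, and the values of C57BL/6J are given in that order. CAST/EiJ had Lung1, Lung2 and Lung101 to Lung105, so the numbers over 100 were spread unequally, with 5 of 7 libraries against 1 of 5. The sources used here do not say what the numbers stand for, and the main results are also given without the numbers over 100. Totals of the 12 libraries ranged from 2066590 to 4184830 counts, of which at least 98.4% fell on the 324 tested miRNAs. A level of 5 CPM, the lowest mean level at which a miRNA was named, stood for 10.3 to 20.9 counts. CPM here are counts of a library brought to a common total of 1000000 with scaling between libraries. Messenger RNA markers of lung were present in all 12 RNA-seq libraries of the same numbers, with surfactant protein C (Sftpc) at 6615 to 13330 CPM. Nothing in the labels says how many animals a group came from, so p-values measure the spread between libraries, which may be technical. In whole lung, fewer cells of a type and less RNA per cell cannot be told apart.

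miRNAs are short RNAs cut from hairpin precursors. Loaded on an Argonaute protein, a miRNA pairs through its seed, bases 2 to 8 from its 5′ end, with sites in messenger RNAs, which are then repressed. miRNAs of the same seed share most of their predicted targets, and many are carried by introns of host genes or by long clusters made from a common transcript.

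The sequences of the miRNAs on which the comparison turned are shown first, from RefSeq (build GRCm38.p6), which held a mature sequence for 261 of the 324 entries. Capitals mark the seed. The 4 that follow had the largest decreases in CAST/EiJ among miRNAs with a sequence in RefSeq, which left out miR-150-5p, and have different seeds.
miR-1298-5p: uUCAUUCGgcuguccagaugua
miR-153-3p: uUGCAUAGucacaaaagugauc
miR-879-5p: aGAGGCUUauagcucuaagcc
miR-652-3p: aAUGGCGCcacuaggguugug
They lie at chrX:147064918-147064939, chr12:117250860-117250881, chr5:9375714-9375734 and chrX:142739060-142739080, all on the plus strand. The next 4 were higher in CAST/EiJ. miR-300-3p and miR-136-3p belong to the Dlk1-Dio3 cluster of chromosome 12, at chr12:109724363-109724384 and chr12:109595366-109595387 on the plus strand. miR-1247-5p lies farther along that chromosome, at chr12:110278094-110278115 on the minus strand, and miR-146b-5p at chr19:46342790-46342811 on the plus strand.
miR-146b-5p: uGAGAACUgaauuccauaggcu
miR-300-3p: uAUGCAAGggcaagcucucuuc
miR-136-3p: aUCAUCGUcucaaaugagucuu
miR-1247-5p: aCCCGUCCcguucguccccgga
The last 4 sets are shown because miRNAs of 1 seed were called in opposite directions. miR-10a-5p and miR-10b-5p differ by U12A, counted from the 5′ end of miR-10a-5p.
miR-10a-5p: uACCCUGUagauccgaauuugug
miR-10b-5p: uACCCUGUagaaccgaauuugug
miR-34b-5p: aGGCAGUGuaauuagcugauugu
miR-449a-5p: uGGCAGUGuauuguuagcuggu
miR-449c-5p: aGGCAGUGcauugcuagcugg
miR-148a-3p: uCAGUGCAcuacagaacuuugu
miR-148b-3p: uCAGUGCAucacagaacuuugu
miR-152-3p: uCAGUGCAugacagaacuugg
miR-190a-5p: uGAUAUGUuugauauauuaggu
miR-190b-5p: uGAUAUGUuugauauuggguug

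To determine how far the strains differed, each miRNA was tested with edgeR's quasi-likelihood test and Benjamini-Hochberg adjustment over all 324, and an adjusted p under 0.05 was called. In total 129 of 324 miRNAs were called (39.8%), 66 higher (20.4%) and 63 lower (19.4%) in CAST/EiJ. Of the 129, 24 differed at least 2-fold, 13 higher and 11 lower. The ranges of CPM did not overlap between the strains for 65 miRNAs (20.1% of those tested), 36 above (11.1%) and 29 below (8.95%) in CAST/EiJ, and all 65 were called. Among the 25 called miRNAs named by rule, the ranges did not overlap for 23. Without the numbers over 100, which left 2 CAST/EiJ and 4 C57BL/6J libraries, 31.2% of the 324 were called, 63 higher (19.4%) and 38 lower (11.7%). With the spread taken from all 12 libraries in that comparison, 83 were called, 41 higher and 42 lower. With all 12 libraries and the number series as a covariate, 118 were called (36.4%), 59 in each direction.

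**Figure D1:**
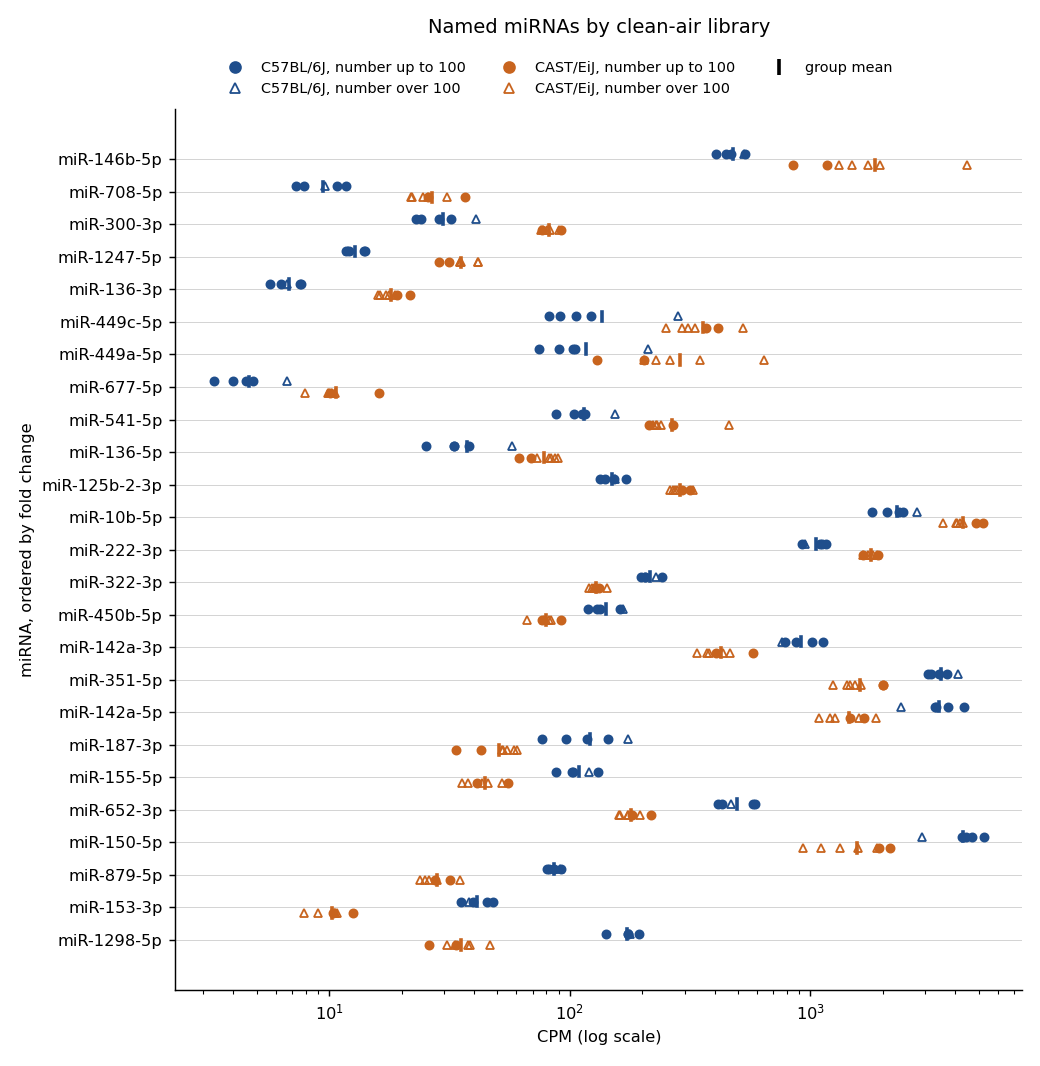
CPM (log scale) of the 25 named miRNAs in each clean-air library, C57BL/6J in blue and CAST/EiJ in orange, with filled circles for numbers up to 100, open triangles for numbers over 100 and a bar at each group mean. The ranges of the strains overlap only for miR-449c-5p and miR-449a-5p, and miR-146b-5p reaches 4482 CPM in CAST/EiJ Lung104.

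The largest fold belonged to miR-1298-5p, which lies within the span of the serotonin receptor gene Htr2c on the X chromosome. The 5 C57BL/6J libraries held 175, 174, 141, 194 and 178 CPM. The 7 CAST/EiJ libraries ranged from 26.0 through a median of 33.7 to 46.4 CPM. Every C57BL/6J library was above every CAST/EiJ library, and miR-1298-5p was 4.91-fold lower in CAST/EiJ (log2 −2.30, SE 0.13, adjusted p = 1.04e-08).

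miR-153-3p, which is known from neurons and endocrine cells, lies within Ptprn2, a gene of secretory granules. It was measured at 45.3, 48.0, 39.4, 35.4 and 38.3 CPM in C57BL/6J and at 7.85 to 12.6 CPM (median 10.6) in CAST/EiJ. The strains did not overlap, and the difference was 4.02-fold (log2 −2.01, SE 0.13, adjusted p = 2.13e-08). miR-879-5p stood at 91.6, 86.0, 80.5, 82.2 and 90.9 CPM in C57BL/6J. In CAST/EiJ it ranged from 23.7 to 34.9 CPM with a median of 27.6. This was 3.07-fold lower (log2 −1.62, SE 0.10, adjusted p = 2.13e-08), again without overlap. miR-652-3p, within Tmem164 on the X chromosome, held 428, 586, 574, 412 and 466 CPM in C57BL/6J and 160 to 216 CPM (median 174) in CAST/EiJ. It was 2.74-fold lower (log2 −1.45, SE 0.12, adjusted p = 3.59e-07). miR-187-3p held 96.1, 144, 118, 76.8 and 174 CPM in C57BL/6J against 33.7 to 60.1 CPM (median 52.8) in CAST/EiJ, 2.39-fold lower, and its C57BL/6J libraries were the more scattered.

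The miRNAs higher in CAST/EiJ were led by miR-146b-5p, a miRNA that dampens innate immune signalling. C57BL/6J held 466, 406, 533, 447 and 527 CPM. CAST/EiJ ranged from 849 through a median of 1493 to 4482 CPM, the highest in Lung104. The ranges did not overlap and the difference was 3.90-fold (log2 1.96, SE 0.37, adjusted p = 0.00118). Without the numbers over 100 the log2 difference was 1.19 (adjusted p = 0.000100), so the fold was smaller in the libraries numbered 1 to 6. The related miR-146a-5p was not called (log2 −0.24, adjusted p = 0.547).

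miR-708-5p was 2.82-fold higher, at 11.7, 7.85, 7.29, 10.8 and 9.57 CPM in C57BL/6J and 21.9 to 36.7 CPM (median 25.7) in CAST/EiJ. miR-1247-5p was 2.77-fold higher, at 11.7, 12.1, 13.9, 14.1 and 11.96 CPM against 28.7 to 41.7 CPM (median 34.9; adjusted p = 6.59e-07). Both were separated completely between the strains. miR-677-5p, at 3.32 to 6.70 CPM in C57BL/6J and 7.91 to 16.1 CPM in CAST/EiJ, was the least abundant of the named miRNAs and was 2.33-fold higher. Of the 5 named for the smallest remaining p, miR-222-3p, a regulator of cell cycle inhibitors, was 1.69-fold higher, at 924 to 1165 CPM in C57BL/6J and 1653 to 1916 CPM in CAST/EiJ (adjusted p = 1.03e-05). miR-125b-2-3p was 1.91-fold higher, at 133 to 171 CPM against 261 to 324 CPM. Neither range overlapped.

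miRNAs of the Dlk1-Dio3 region were called higher in CAST/EiJ in 13 of 14 tested entries. This imprinted region of chromosome 12 carries many miRNAs that are made from the maternal chromosome together with the long RNAs Meg3, Rian and Mirg. The table listed 45 entries of it, of which 14 had a value in every clean-air library. The median log2 difference of the 14 was 0.95, beside a median of −0.03 over all 324, and none was called lower. The other member, miR-409-5p, was at 7.19 to 40.2 CPM in CAST/EiJ and at 8.61 to 20.1 CPM in C57BL/6J (log2 0.18, adjusted p = 0.773). Because entries without a value in any 1 library were left out, the 14 are the more abundant members and not the whole region. miR-1247-5p, farther along the same chromosome, was not on the list of this cluster and is not among the 14.

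miR-300-3p had the largest fold of the cluster. C57BL/6J held 32.1, 22.9, 24.2, 28.5 and 40.7 CPM, and CAST/EiJ ranged from 76.0 to 91.8 CPM with a median of 80.4. Its 7 CAST/EiJ libraries lay close together and far above those of C57BL/6J, at 2.79-fold (log2 1.48, SE 0.13, adjusted p = 9.66e-07). miR-136-3p was 2.67-fold higher, at 7.60, 6.34, 7.62, 5.70 and 6.70 CPM against 16.02 to 21.7 CPM (median 17.8). The other arm of its hairpin, miR-136-5p, was 2.11-fold higher, at 25.2 to 57.4 CPM against 61.2 to 89.0 CPM. miR-541-5p was 2.32-fold higher, at 87.8 to 154 CPM against 213 to 458 CPM. miR-127-3p, the most abundant member and singled out after its values were seen, averaged 1181 ± 128 CPM (SD, n = 5) in C57BL/6J. Its CAST/EiJ mean was 1911 ± 458 CPM (SD, n = 7). It was called at a log2 difference of 0.69 (adjusted p = 0.0025), and its ranges overlapped.

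The host transcript Mirg, a long noncoding RNA that spans miR-409, miR-410 and miR-541, moved the same way in RNA-seq, though at a level of few counts. It was at 0.470 ± 0.145 CPM (SD, n = 5) for C57BL/6J and 1.51 ± 0.458 CPM (SD, n = 7) in CAST/EiJ (log2 1.65, adjusted p = 0.000195). Values of Meg3 and Rian are not given here. Without the numbers over 100 all 14 entries were called higher, with a median log2 difference of 1.17. Over all entries with a RefSeq position on chromosome 12, the cluster included, 15 of 22 were called higher and 3 lower.

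A second cluster moved in the opposite direction. The X-linked cluster of miR-322, miR-503, miR-351, miR-450 and miR-542 includes relatives of the miR-15 and miR-16 family, which restrain cell division and are induced when muscle cells differentiate. All 8 entries tested, of 12 in the table, were called lower in CAST/EiJ, with a median log2 difference of −0.90. The 2 entries of miR-450a are the same mature sequence at neighbouring loci and share reads, so they are not separate measurements. miR-351-5p was the most abundant and the most changed. It held 3695, 3412, 3177, 3079 and 4102 CPM in C57BL/6J and 1242 to 2001 CPM (median 1532) in CAST/EiJ, 2.17-fold lower (adjusted p = 9.86e-06). Its log2 difference was −0.67 without the numbers over 100 and −1.50 among them, against −1.12 in all libraries.

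miR-542-3p stood at 88.2 ± 15.9 CPM (SD, n = 5) for C57BL/6J and 43.5 ± 7.03 CPM (SD, n = 7) in CAST/EiJ, a log2 difference of −1.02. miR-450b-5p was 1.77-fold lower, from 119 to 166 CPM in C57BL/6J to 66.1 to 92.2 CPM in CAST/EiJ. miR-322-3p was 1.67-fold lower, from 198 to 241 CPM to 120 to 142 CPM (adjusted p = 1.02e-05), while its more abundant 5p arm was lower by a log2 of 0.35. Outside this cluster, 27 tested entries had a RefSeq position on the X chromosome, of which 5 were called lower and 5 higher, beside 19.4% lower and 20.4% higher over all miRNAs. In the X-linked cluster within Clcn5, 3 of 7 entries were called higher, miR-188-5p, miR-500-3p and miR-532-5p, with log2 differences of 0.57, 0.55 and 0.46, and the other 4 tested members of that cluster were not called.

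**Figure D2:**
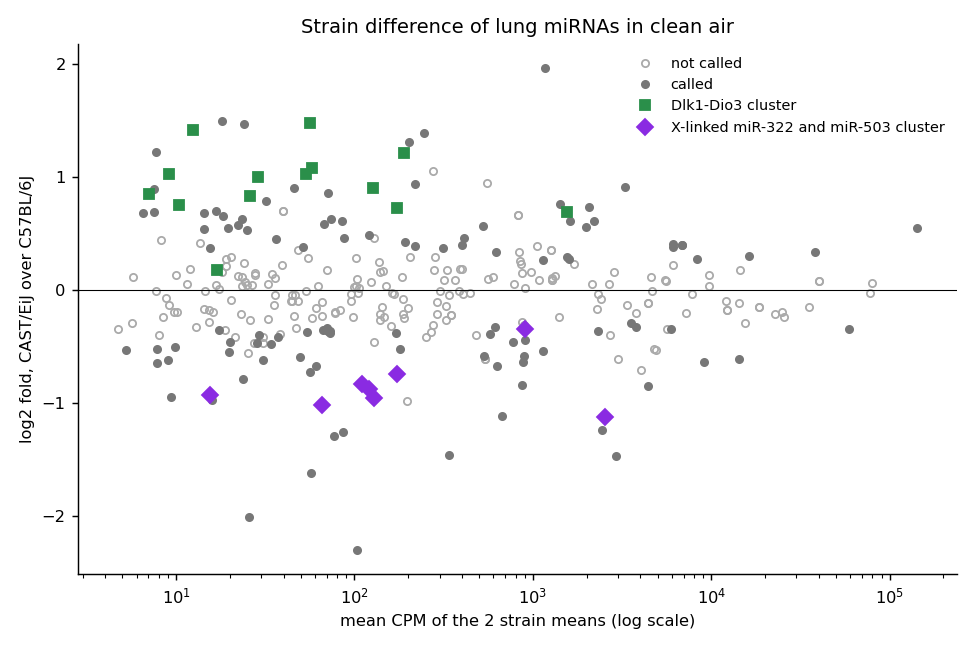
Log2 fold of CAST/EiJ over C57BL/6J against the mean CPM of the strains (log scale) for the 324 tested miRNAs, with circles filled where called and cluster symbols filled throughout. The 14 Dlk1-Dio3 entries (green squares) lie above 0 and the 8 entries of the X-linked miR-322 and miR-503 cluster (purple diamonds) below it.

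Of 18 tested entries of the haematopoietic list, miRNAs of white blood cells, 7 were called lower and 2 higher in CAST/EiJ, with a median log2 difference of −0.20. Over all miRNAs 19.4% were called lower and 20.4% higher. miR-150-5p, a miRNA of mature B and T lymphocytes, held 4268, 4679, 4415, 5256 and 2907 CPM in C57BL/6J. CAST/EiJ ranged from 932 to 2135 CPM with a median of 1568. The strains did not overlap, although C57BL/6J Lung106 was the nearest to CAST/EiJ, and the difference was 2.77-fold (log2 −1.47, SE 0.20, adjusted p = 9.52e-05). Within each number series the log2 difference of miR-150-5p was smaller, at −1.13 among the numbers up to 100 and −1.09 among those over 100. In the latter C57BL/6J had only Lung106. With the number series as a covariate the log2 difference was −1.16.

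miR-142, which is made in all blood cell lineages, was lower in both arms. miR-142a-5p held 4333, 3724, 3310, 3298 and 2385 CPM in C57BL/6J and 1086 to 1871 CPM in CAST/EiJ, 2.36-fold lower (adjusted p = 2.57e-05), and miR-142a-3p was 2.16-fold lower. With the number series as a covariate their log2 differences were −1.06 and −0.95, against −1.24 and −1.11 without it. miR-155-5p, induced in activated lymphocytes and macrophages, held 87.6 to 131 CPM in C57BL/6J against 35.6 to 55.5 CPM (median 43.2), 2.45-fold lower (adjusted p = 2.77e-06). miR-223-3p, the miRNA of neutrophils and other myeloid cells, was not called (log2 −0.25, adjusted p = 0.0881), and its other arm miR-223-5p was called at a log2 of −0.55. The 2 called higher were miR-146b-5p and miR-342-5p (log2 0.69).

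Messenger RNA markers of lymphocytes moved with these miRNAs. The summed level of 5 B cell genes, Cd79a, Cd79b, Ms4a1, Cd22 and Fcer2a, was 133 to 236 CPM in the C57BL/6J RNA-seq libraries and 21.9 to 83.6 CPM in those of CAST/EiJ. The sum of 6 T cell genes, Cd3d, Cd3e, Cd3g, Cd4, Cd8a and Lck, was 29.8 to 47.6 CPM against 8.87 to 16.7 CPM. Neither sum overlapped between strains, although Cd4 on its own did, and Lung106 was again the lowest of C57BL/6J in both. The sum of 6 myeloid genes, Cd68, Itgam, Itgax, S100a8, S100a9 and Csf1r, was 306 to 341 CPM in C57BL/6J and overlapped the 303 to 389 CPM of CAST/EiJ. Its members went different ways, with Cd68 and Itgax higher and Csf1r lower in CAST/EiJ without overlap. These lists were chosen after the miRNA values were seen, and their part in the miRNA differences was not tested.

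Of 5 red blood cell entries 4 were called higher in CAST/EiJ, with a median log2 difference of 0.40, beside 20.4% called higher over all miRNAs. Without the numbers over 100, and likewise with the number series as a covariate, 3 of the 5 were called higher. miR-144-5p, miR-144-3p, miR-486-5p and miR-486-3p were called at log2 differences of 0.57, 0.40, 0.40 and 0.63. miR-451a, the most specific of them, was not called, with 4407 ± 573 CPM (SD, n = 5) for C57BL/6J beside 4786 ± 661 CPM (SD, n = 7) for CAST/EiJ. The globin messenger RNA Hbb-b1 was at 2278 to 3511 CPM in C57BL/6J and 2751 to 5216 CPM in CAST/EiJ. Hba-a1 was at 1844 to 3201 CPM and 2482 to 6454 CPM, and the table holds nearly the same values for its copy Hba-a2. Both overlapped between the strains, and their part was not tested.

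In the miR-34 and miR-449 family, whose members support the formation of motile cilia in airway cells, the 4 tested entries of the ciliated cell list were called in opposite directions. miR-449c-5p held 122, 91.4, 81.8, 106.2 and 280 CPM in C57BL/6J and 252 to 524 CPM (median 332) in CAST/EiJ, 2.62-fold higher (adjusted p = 0.00331). miR-449a-5p held 105.05, 74.5, 90.4, 102.6 and 212 CPM against 130 to 641 CPM (median 228), 2.47-fold higher (adjusted p = 0.0181). In both, C57BL/6J Lung106 reached into the CAST/EiJ range, while Lung3 to Lung6 lay below every CAST/EiJ library. With the number series as a covariate miR-449a-5p did not pass (log2 0.77, adjusted p = 0.0943). miR-449c-5p differed by a log2 of 2.03 among the numbers up to 100 and of 0.29 among the 6 numbers over 100, where C57BL/6J is 1 library.

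miR-34b-5p, which has the same seed, was lower in CAST/EiJ, at 773 ± 65.9 CPM (SD, n = 5) for C57BL/6J and 485 ± 148 CPM (SD, n = 7) in CAST/EiJ (log2 −0.67, adjusted p = 0.0094). miR-34b-3p was lower by a log2 of 0.52. Every C57BL/6J library of miR-34b-5p lay above every CAST/EiJ library. Among the numbers up to 100 the log2 differences of the 5p and 3p arms were −0.14 and −0.09, against −1.01 and −0.83 among the numbers over 100. miR-34a-5p was not called (log2 0.28, adjusted p = 0.238). Messenger RNAs of ciliated cells, Foxj1, Dnah5, Tekt1, Ccdc39, Rsph1 and Mcidas, summed to 340 to 481 CPM in C57BL/6J. In CAST/EiJ they summed to 326 and 382 CPM in Lung1 and Lung2 and to 188 to 254 CPM in Lung101 to Lung105. The genes went different ways. Dnah5 (220 to 313 CPM in C57BL/6J, 81.0 to 199 in CAST/EiJ) and Ccdc39 were lower in CAST/EiJ without overlap. Rsph1 was higher without overlap, at 14.9 to 20.4 CPM against 34.9 to 62.9 CPM, and Foxj1, Tekt1 and Mcidas overlapped. This list too was chosen after the values were seen, and its part was not tested.

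The third member of that family, miR-34c, had values in 1 strain only. miR-34c-5p was listed at 38008.5, 34535, 30690, 38985.5 and 32383 counts in C57BL/6J, which was 1.22 ± 0.21% (SD, n = 5) of the library and placed it between rank 15 and 23 of all entries. In the 7 CAST/EiJ libraries it had no value, where the smallest value listed anywhere in the table was 10.5. miR-34c-3p was listed at 402 to 542 counts in C57BL/6J and had no value in CAST/EiJ. Its neighbour miR-34b, made from the same precursor transcript, had values in all 12 libraries. Under BD both arms of miR-34c were listed in all 4 C57BL/6J libraries and in none of the 4 labelled CAST/EiJ.

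The library labelled CAST/EiJ BD and numbered Lung8 went against its strain label. It was nearer to the clean-air C57BL/6J mean than to the CAST/EiJ mean in 116 of 128 called miRNAs and in 24 of 24 named ones. The same count was not made for the other BD libraries. miR-1298-5p stood there at 197 CPM, against 22.5 to 33.0 CPM in Lung7, Lung9 and Lung10 of the same label and 206 to 241 CPM in C57BL/6J BD. Yet miR-34c had no value in Lung8 either. The missing values of miR-34c thus followed the label of the column and not the level of the other strain-different miRNAs. The reason was not tested, and no fold change is given.

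Other entries listed in 1 strain only were of low abundance. Besides miR-34c, 4 had values in all 5 C57BL/6J and in no CAST/EiJ library. They were miR-1264-3p at 11 to 54 counts, miR-1298-3p at 13 to 26, miR-3057-5p at 17 to 32 and miR-489-3p at 16 to 48. All 4 had a value in Lung8. miR-1298-3p is the other arm of miR-1298-5p, and both arms of miR-1912, which also lies within Htr2c, were listed in 4 of 5 C57BL/6J and in no CAST/EiJ library. The 6 entries listed in all CAST/EiJ and in no C57BL/6J library were miR-135b-5p, miR-196b-5p, miR-376b-3p, miR-411-3p, miR-5121 and miR-540-3p, with 11 to 41.5 counts. These values lie near the smallest listed value, so a missing value does not show absence.

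To examine whether miRNAs moved with the genes that carry them, each was matched to a RefSeq gene spanning it on the same strand. The 12 RNA-seq libraries of the same strains and numbers, with totals of 10601756 to 37529979 counts, tested 81 such host genes for 149 entries. Of the host genes 48 were called, 20 higher and 28 lower, which is 59.3% beside 57.4% of all 16612 genes tested (27.8% higher and 29.6% lower). Among 53 pairs with a called miRNA, the host was called in 31, in the same direction in 23 and the opposite in 8. Pairs that share a host or a mature miRNA are not independent.

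The hosts of miR-1298-5p, miR-153-3p, miR-879-5p and miR-652-3p were lower in CAST/EiJ too. No host gene with values was matched to miR-150-5p, miR-155-5p, miR-187-3p, miR-351-5p or the arms of miR-142a. Htr2c was at 2.90 ± 0.561 CPM (SD, n = 5) for C57BL/6J and 0.365 ± 0.148 CPM (SD, n = 7) in CAST/EiJ (log2 −2.99, SE 0.25, adjusted p = 2.63e-07). Ptprn2 was at 5.51 ± 0.721 and 0.963 ± 0.229 CPM (log2 −2.53, SE 0.18, adjusted p = 3.23e-08). For both, the host differed by more than its miRNA on the log2 scale, though at a level of few counts. Tmem164, which spans miR-652, was lower by a log2 of 0.68, and Elapor2, which spans miR-879, by a log2 of 0.31. Copz2, which spans miR-152, was lower by a log2 of 0.89 beside log2 −0.58 for miR-152-3p.

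Other pairs went apart; these, like Copz2, were picked after their values were seen. miR-204-5p was higher by a log2 of 0.90 while its host Trpm3, an ion channel gene, was lower (log2 −1.24, adjusted p = 0.00234). miR-218-5p was higher in its 2 entries by log2 0.62 and 0.59. Slit2 and Slit3, which encode guidance ligands and span these loci, were lower by log2 0.23 and 0.66. The 2 entries carry the same mature name and can share reads, so they are not separate measurements of the loci. miR-32-5p was higher by a log2 of 0.61 and its host Tmem245 lower by 0.65. Cdc20b, which spans the miR-449 cluster, was not called (log2 0.20, adjusted p = 0.619).

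**Figure D3:**
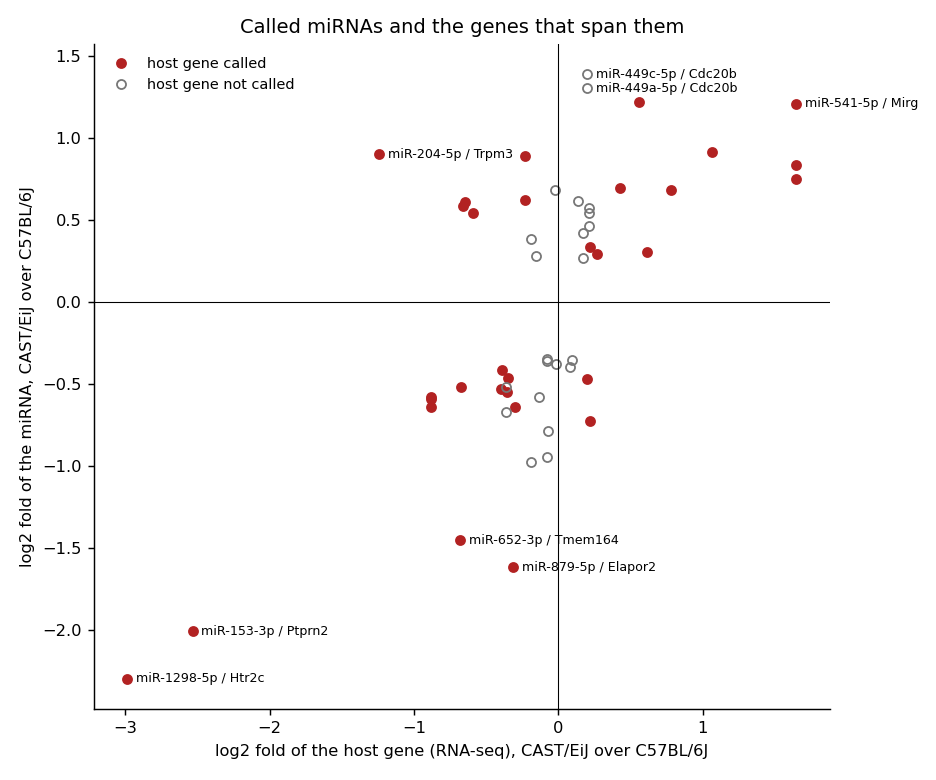
Log2 fold of called miRNAs against that of the gene spanning them, filled where the host gene was called. miR-1298-5p with Htr2c and miR-153-3p with Ptprn2 lie far to the lower left, and miR-204-5p with Trpm3 lies in the upper left, where the miRNA was higher and its host lower.

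The arms of a hairpin come from the same precursor. Of 96 hairpins with both arms tested, 56 had arms of the same sign. Neither arm was called in 45, where 39.8% of all 324 entries were called. In 37 only 1 arm was called, and in 22 of these the arms had the same sign. Both arms were called in 14, 12 in the same direction and 2 in opposite directions. The latter were miR-676, with the 5p arm lower (log2 −0.97) and the 3p arm higher (log2 0.39), and miR-29a, with the minor 5p arm lower (log2 −0.37) and the 3p arm higher (log2 0.27). miR-676-5p held 17.9 to 23.4 CPM in C57BL/6J and 7.65 to 13.2 CPM in CAST/EiJ, while miR-676-3p held 162 to 203 CPM and 221 to 275 CPM. Both arms of miR-676 were separated between the strains.

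Of 33 seeds shared by at least 2 tested mature miRNAs, 21 held a called member and 5 held members called in both directions. Over all 324 entries 20.4% were called higher and 19.4% lower. At such shares many seeds of 2 or more members would hold a call, so the counts alone do not set seed groups apart. In the miR-10 pair, whose genes lie in the Hox clusters, miR-10b-5p was 1.89-fold higher, at 1805 to 2779 CPM in C57BL/6J and 3555 to 5196 CPM in CAST/EiJ (adjusted p = 3.74e-05). miR-10a-5p, at 61069 to 71671 CPM in C57BL/6J and 47529 to 60353 CPM in CAST/EiJ, was lower by a log2 of 0.34 (adjusted p = 0.00337). Neither range overlapped, so the strains differed in opposite directions for sequences that differ at 1 base. In the second set miR-148a-3p was higher by a log2 of 0.38, and miR-148b-3p and miR-152-3p were each lower by a log2 of 0.58. miR-190b-5p was higher by a log2 of 0.69 and miR-190a-5p lower by 0.61, with overlapping ranges. The remaining seed, of miR-25, miR-32 and miR-92b, held miR-32-5p at log2 0.61 and miR-92b-3p at log2 −0.85. Counts of near-identical miRNAs can depend on how shared reads were assigned, which the sources used here do not state.

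**Figure D4:**
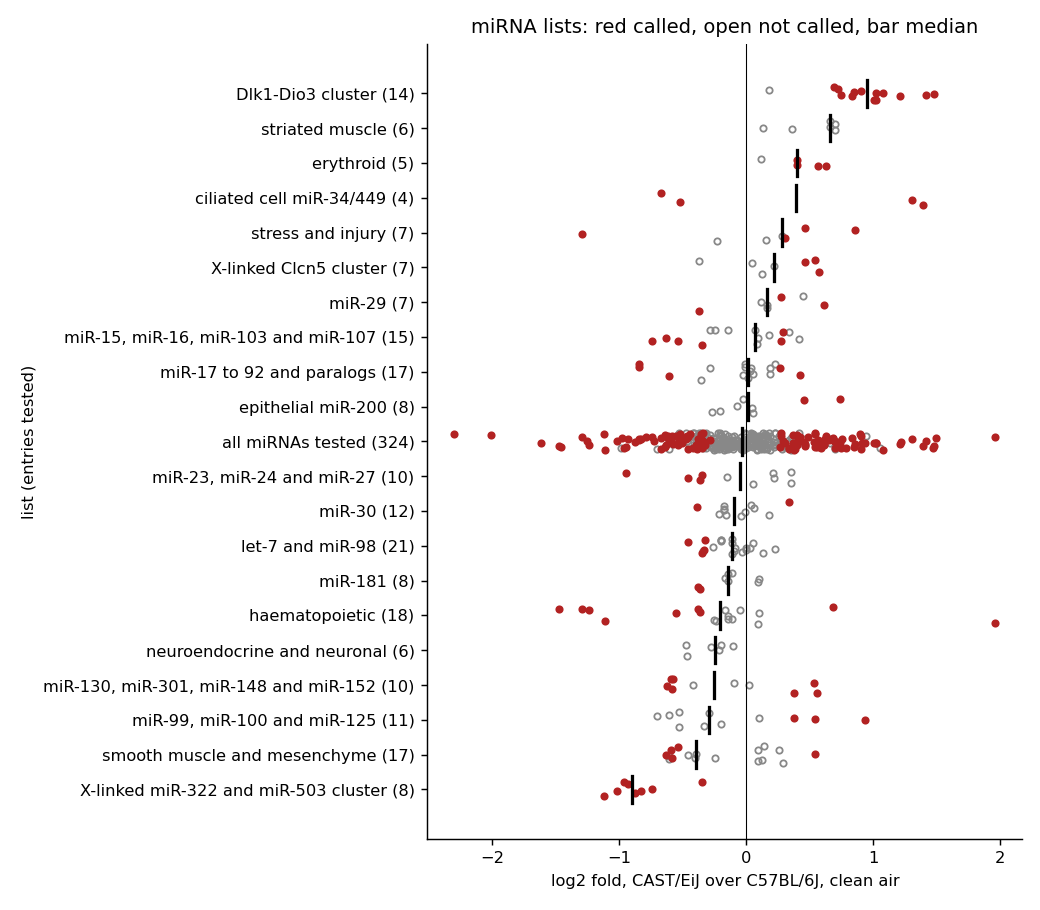
Log2 fold of CAST/EiJ over C57BL/6J for each tested entry of the miRNA lists with at least 4 tested entries, red where called and open where not, with a bar at the median. The Dlk1-Dio3 cluster has the highest median (0.95) and the X-linked miR-322 and miR-503 cluster the lowest (−0.90), beside −0.03 for all miRNAs tested.

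The counts of the other lists are to be read against 20.4% higher and 19.4% lower over all miRNAs, and for several of them the shares were near or under these. Of 17 smooth muscle and mesenchyme entries 1 was called higher, miR-143-3p, a miRNA of contractile cells (log2 0.55), and 4 lower, both arms of miR-152, miR-195a-5p and miR-497a-5p. The number lower was 10, 9 and 8 without Lung1, Lung2 and Lung106. Of 21 entries of let-7 and miR-98, 4 were called lower, and 1 or 2 without any of Lung3 to Lung6, Lung101, Lung102 or Lung105. In the epithelial miR-200 list both arms of miR-200a were called higher of 8 entries. Of 17 entries of the miR-17 to miR-92 clusters 2 were higher and 3 lower, of 7 miR-29 entries 2 and 1, and of 12 miR-30 entries 1 and 1. Of 15 entries of the miR-15, miR-16, miR-103 and miR-107 list 2 were higher (4 without Lung2) and 4 lower. The 2 higher were both entries of miR-103-3p, which can share reads and are not separate measurements. Of 10 entries of miR-23, miR-24 and miR-27 there were 4 lower, of 11 of miR-99, miR-100 and miR-125 there were 3 higher, and of 8 miR-181 entries 2 were lower. Of 10 entries of miR-130, miR-301, miR-148 and miR-152 there were 3 higher and 4 lower. Of 7 stress and injury entries 3 were higher, miR-132-3p (log2 0.86), miR-210-3p and miR-21a-5p, and miR-155-5p was lower. None of 6 neuroendocrine and neuronal, 2 endothelial or 3 squamous entries was called. No liver or Sfmbt2 entry had a value in all 12 libraries, and miR-122-5p, the liver miRNA, was therefore not tested.

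Markers of neighbouring tissues varied between libraries within a strain. miR-205-5p, a miRNA of squamous epithelium, held 105.7, 130, 46.4, 115 and 507 CPM in C57BL/6J and 30.2 to 755 CPM in CAST/EiJ, and was not called (adjusted p = 0.268). The sum of 8 squamous messenger RNAs, among them Krt13 and Krt4, was 1597 CPM in Lung106, 683 in Lung1, 2125 in Lung101 and 1988 in Lung102, and 3.36 to 30.8 CPM in the other 8 RNA-seq libraries. miR-203-3p, of the same epithelium, was not called either (adjusted p = 0.828). Of 6 striated muscle entries none was called with all libraries, 4 were called higher without Lung106 and 5 without the numbers over 100. Striated muscle messenger RNAs summed to 495 to 2348 CPM and overlapped between strains. Their part in the called differences was not tested.

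To examine the strain differences in other libraries, the BD libraries were fitted on their own, with 3 of CAST/EiJ (Lung8 left out) against 4 of C57BL/6J. There 120 of 344 miRNAs were called (34.9%), 53 higher (15.4%) and 67 lower (19.5%). Of the 129 clean-air calls 127 were tested, 96 had the same direction, 47 were called in the same direction and 5 in the opposite. With Lung8 kept under its label, the 47 became 29. Across 320 miRNAs Pearson's r between the log2 differences was 0.491, a description over miRNAs that share libraries. C57BL/6J BD Lung15 to Lung17 were deeper, at 7676680 to 8474180 counts, than the other BD libraries used, at 2519780 to 3156830 counts.

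Of 24 named miRNAs tested under BD, 22 had the clean-air direction and 13 were called with it. Among these, miR-1298-5p was lower by a log2 of 3.13, miR-153-3p by 1.84, miR-879-5p by 1.72, miR-187-3p by 1.45 and miR-652-3p by 1.14. miR-1247-5p, miR-222-3p and miR-146b-5p were higher by 1.82, 1.37 and 1.30. The 4 named miRNAs of white blood cells that were lower in clean air were not called under BD, with log2 differences of 0.01 for miR-150-5p, −0.29 for miR-142a-5p, −0.12 for miR-142a-3p and −0.43 for miR-155-5p. Of the 18 entries of the haematopoietic list 4 were called higher and 3 lower there. Of the 5 red blood cell entries none was called higher and 2 were called lower. miR-351-5p stood at −0.08 and miR-449a-5p at −0.09. Of the 14 Dlk1-Dio3 entries 5 were called higher (median 0.48), and of the 8 entries of the miR-322 and miR-503 cluster 4 were called lower (median −0.37). Whether the strain difference itself changed with exposure was not tested here. miR-34b-5p was lower by a log2 of 1.94 under BD.

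**Figure D5:**
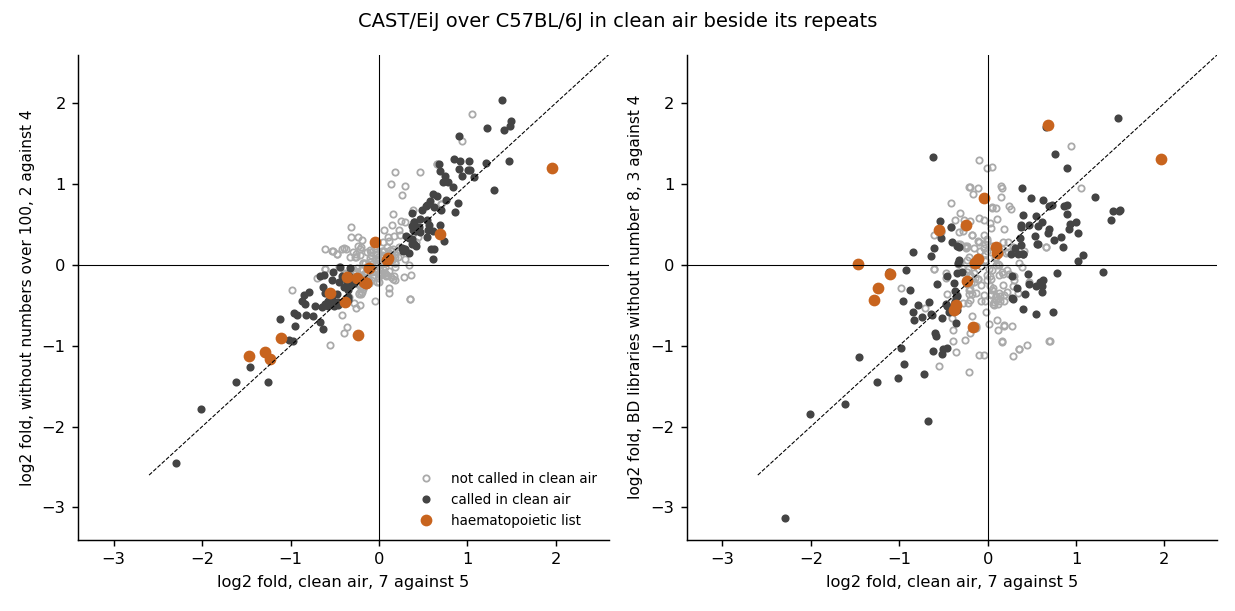
Log2 fold of CAST/EiJ over C57BL/6J in all 12 clean-air libraries (x axis) against that without numbers over 100 (left, which shares 6 libraries with the x axis) and that in the BD libraries (right), with called miRNAs filled, the haematopoietic list in orange and a dashed line of equal values. On the right miR-150-5p and both arms of miR-142a lie between −0.29 and 0.01, while miR-1298-5p lies at −3.13.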

How the data were processed

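Small RNA of mouse lung was sequenced from total RNA (RNeasy extraction, TruSeq libraries, per the labels' protocols). The deposited miRNA table holds estimated counts, fractional where reads were shared (64.1% of values were whole within 1e-06), and per the submitters' processing notes the authors used Bowtie and the build mm9. For RNA-seq the deposited values are counts under gene symbols, from GSNAP and mm9 by the same notes. The sources used here do not give versions, counting tools, annotation, handling of mismatches or the rule for empty values. The mm9 build is of C57BL/6J.

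Every column was matched to a sample by title. Estimated counts of the 324 miRNAs listed in all 12 clean-air libraries were rounded and fitted with edgeR 4.0.16 in R 4.3.3 (TMM scaling, robust quasi-likelihood F test), with Benjamini-Hochberg adjusted p under 0.05 called. Fits without numbers over 100, on the BD libraries, and on RNA-seq counts (filterByExpr, 16612 genes of 23872 complete) were made in the same way. Levels are CPM of TMM-scaled libraries unless stated otherwise, SD is over libraries, and SE is the log2 difference divided by the square root of F. No 2 of the 12 libraries were copies: chi-square divided by its degrees of freedom was at least 20.5 in each of 66 pairs. The scripts were checked on simulated data.

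Among called miRNAs averaging 5 CPM or more in either strain, those named by rule were the 10 with the highest fold, the 10 with the lowest and the 5 next by p. Added to these were their other arms, seed relatives, 6 marker miRNAs, hosts of named miRNAs and up to 3 called members per list and direction, while other names were picked after their values were seen. The members and lists were chosen with earlier results of these data known. Alternatives were other scaling, DESeq2 1.42.0, limma 3.58.1 (voom), other libraries or filters, thinning and leaving out each library. Names, positions and sequences came from RefSeq, GRCm38.p6. Positions are not those of mm9, and none was converted. An item of the marker lists is not reported here.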

Additional observations from a re-analysis of the deposited data

Results flagged for a closer look

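In 64 groups, each the libraries of 1 strain, the gap of the highest or lowest library to its nearest neighbour was compared with the group's range. A group held the values of 1 named or marker miRNA, the library totals or the numbers of listed entries. In 8 groups, all of a miRNA, 1 library stood far from the rest by a rule (Dixon's). That rule marks about 1 in 20 groups by chance, 3.2 of 64. In C57BL/6J Lung106 stood apart in 4 of them, with miR-449c-5p at 280.41 CPM, miR-449a-5p at 211.5 CPM, miR-203-3p at 462.24 CPM and miR-205-5p at 507.22 CPM. In CAST/EiJ Lung104 stood apart in 3, with miR-146b-5p at 4482.1 CPM, miR-449a-5p at 640.89 CPM and miR-541-5p at 458.41 CPM. CAST/EiJ Lung1 stood apart with miR-677-5p at 16.073 CPM.

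Entries outside the tested set had values in every library of 1 strain and in none of the other. In C57BL/6J the lowest of 5 counts was 30690 for miR-34c-5p, 402 for miR-34c-3p, 17 for miR-3057-5p, 16 for miR-489-3p, 13 for miR-1298-3p and 11 for miR-1264-3p. In CAST/EiJ the lowest of 7 counts was 21 for miR-196b-5p, 18 for miR-540-3p, 15.5 for miR-411-3p, 15.4 for miR-5121, 14 for miR-135b-5p and 11 for miR-376b-3p. Under BD, miR-411-3p was listed in all 4 C57BL/6J libraries, miR-376b-3p and miR-540-3p in 3, miR-5121 in 2 and miR-135b-5p in 1. miR-196b-5p was listed in none of them. Of these 4 libraries, 3 were deeper than the other BD libraries. In the other direction, miR-3057-5p was listed in 1 of 3 CAST/EiJ BD libraries other than Lung8.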

How the results depend on the processing

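The number of called miRNAs, 129 with all libraries, was 118 to 155 under the other scaling, tools, filters and library sets, and 112 to 143 with 1 library left out. Without numbers over 100, 63 were higher and 38 lower. With 1 of those libraries left out, the count was lowest at 73 and highest without Lung6, with 55 higher and 50 lower. Where 1 CAST/EiJ library remained, it was assumed to vary like the others. The number called in the same direction under BD was 47 (33 to 63 with 1 library left out), and 29 with Lung8 kept. The number of called host genes was 48 (39 to 48 with 1 library left out), and 31 without numbers over 100. Of 687 alternative values of the named and marker miRNAs, 676 kept their direction and their side of the threshold, 6 gained the call, 1 lost it and 4 turned. The loss was miR-449a-5p with the number series as a covariate. The gains were miR-133a-1-3p, miR-1a-1-3p and miR-205-5p, without Lung106 or without all numbers over 100. Those that turned were all of miR-203-3p, which was not called under any setting, at log2 −0.034 with limma-voom, −0.15 with the number series as a covariate, and −0.12 and −0.07 without CAST/EiJ Lung101 and Lung102 (−0.12 to 0.28 with any 1 library left out). The causes were not tested. No paired analysis was possible because the strains share no title number and replicate numbers were given in accession order. Depth limits the lowest miRNAs, since 5 CPM is 10.3 to 20.9 counts.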
